A study of Mus musculus with 6 samples.

Results

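The comparison described here set Ezh2-deficient chondrocytes against wildtype chondrocytes at the last time point of the series, day 14 of micromass culture. It rested on 2 of the 6 libraries, 1 per genotype, and took in every entry of the gene table. Of the 23358 entries, 13477 reached at least 1 CPM (counts scaled to a common library total) in the higher of the day 14 libraries and were compared. The other 4 libraries, the wildtype and Ezh2-deficient pairs of days 3 and 7, served to ask where day 14 stood apart. All cells were immature chondrocytes from mice of a mixed C57BL/6 background at post-natal day 5, taken from the cartilage of the hip and knee (femoral head, femoral condyles and tibial plateau). Both genotypes had the same medium, with insulin-transferrin-selenium, ascorbic acid and β-glycerol phosphate, the phosphate donor commonly used to let cultures mineralise. The mutant libraries carry the title Ezh2_cKO, which marks a conditional knockout; the driver of the deletion, the deleted part of the gene, the sex of the mice and the number of animals behind a library are not given in the sources used here.

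Ezh2 is the main methyltransferase of Polycomb repressive complex 2 (PRC2), which places the repressive H3K27me3 mark on histone H3 at developmental genes that a cell keeps silent. Growth plate and joint chondrocytes first divide and lay down a matrix of type II collagen and aggrecan, then enlarge, switch on type X collagen and allow the matrix to mineralise, after which bone-forming cells or former chondrocytes make a type I collagen matrix. In micromass culture this sequence runs over days in a dense drop of cells, so a late time point holds cells of several stages together.

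Depth at day 14 was 51985214 counts in the wildtype and 57319966 in the Ezh2-deficient library, within a range of 51985214 to 79323302 over the series. Each value below is a level in CPM after scaling, given as wildtype against Ezh2-deficient, and each log2 difference is Ezh2-deficient minus wildtype. With 1 library a side no test within day 14 was possible. The intervals beside the fold differences are exact 95% intervals that cover counting error only, not the spread between cultures. In RNA from whole micromasses, fewer cells of a type and less RNA per cell cannot be told apart. A gene was counted as apart at day 14 when it reached 1 CPM in the higher library, lay at least 2-fold apart and had a counting interval that excluded equality.

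Markers of the labelled cell type were abundant in both libraries: Col2a1, the type II collagen of cartilage, stood at 20172 against 11426 CPM at day 14 and Sox9, the transcription factor that establishes the chondrocyte fate, at 189.9 against 139.7 CPM. Per transcript length, Col2a1 was the gene with rank 5 in the wildtype and rank 9 in the Ezh2-deficient library at day 14, by the deposited RPKM values. Other cells were present as well. Of 23 macrophage markers listed, 22 were measured at 1 CPM or more, with a summed level of 3489 CPM in the wildtype and 4287 CPM in the Ezh2-deficient library. By contrast 6 of 15 endothelial markers reached 1 CPM (52.4 and 62.2 CPM in sum), 4 of 16 skeletal muscle markers did (11.8 and 11.7 CPM) and 1 of 14 erythroid and lymphoid markers did, 7 of which had no counts in either library.

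Ezh2 itself (chromosome 6, 47530274 to 47595030, mm10) stood at 24.6 against 14.7 CPM (day 3), 40.3 against 23.03 CPM (day 7) and 27.9 against 17.6 CPM (day 14). It was below its wildtype partner on each day, 1.59-fold lower (1.41 to 1.79) at day 14, so transcript remained in the mutant library. Reads from outside the deleted part would still be counted, so the level does not check the label. Of 12 PRC2 genes at 1 CPM or more, Phf19, which helps recruit the complex to chromatin, was the single gene apart, at 8.46 against 3.28 CPM. Suz12 and Eed, the core partners of Ezh2, stood at 80.5 against 68.8 CPM and 31.04 against 31.9 CPM, and Ezh1, its close relative, at 30.6 against 30.1 CPM. None of these 3 was apart by the size rule.

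At day 14 the rule counted 348 genes higher in the Ezh2-deficient library (2.58% of the 13477 compared) and 448 lower (3.32%). The same rule had counted 246 higher and 68 lower at day 3 (of 13128 genes), and 338 higher and 229 lower at day 7 (of 13473). The higher side was thus of like size at days 7 and 14, while the count on the lower side at day 14 was the largest of the 3 days. Of the 348 higher genes, 123 (35.34%) were already apart in the same direction at day 7 and 40 (11.49%) at day 3. Of the 448 lower genes, 86 (19.2%) were already so at day 7 and 16 (3.571%) at day 3. Most of the lower genes, 346 (77.23%), were apart in that direction at day 14 and on neither earlier day, against 206 (59.2%) of the higher genes. Of all genes compared, 314 of 13128 were apart at day 3 and 567 of 13473 at day 7. Most genes of any kind were thus apart on neither earlier day, and these shares do not mark a set as particular to day 14. The signs of the lower genes had mostly been set by day 7. Of the 448, 404 (90.18%) had a negative log2 difference at day 7, against 172 (38.39%) at day 3. The median log2 difference of all genes was -0.0046 at day 7 and 0.0011 at day 3.

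**Figure D1:**
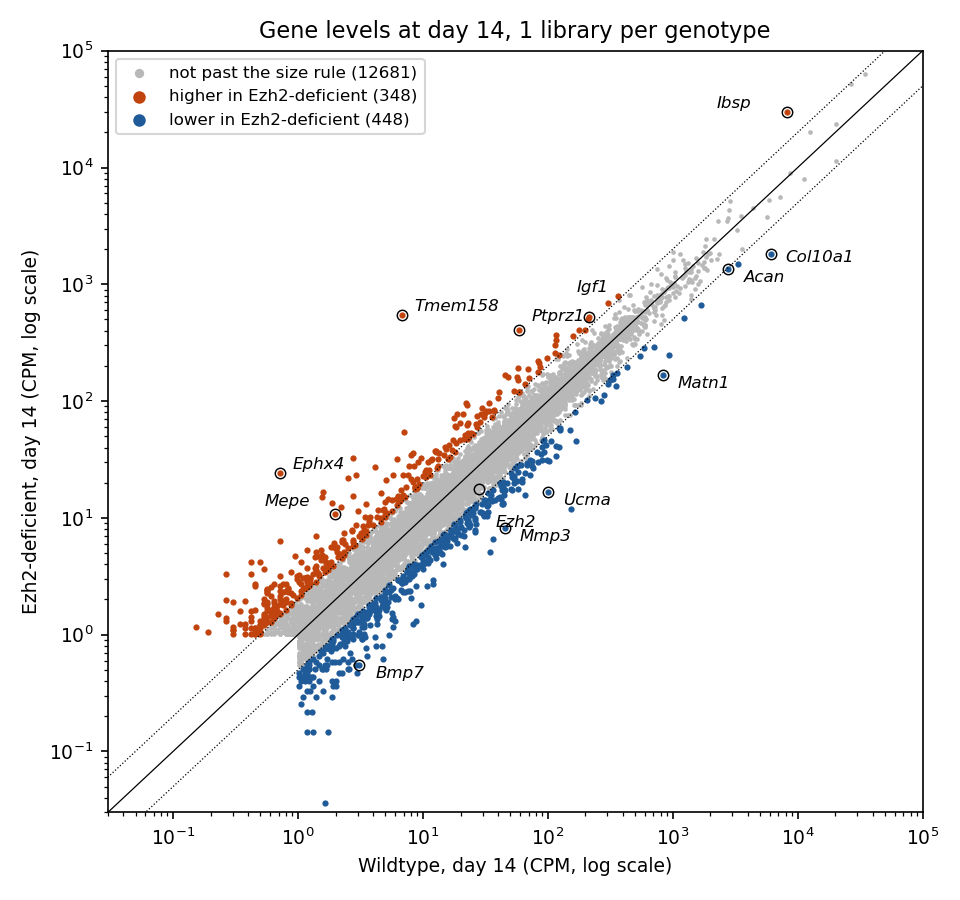
Level of each gene at day 14 in the wildtype library (horizontal axis, CPM, log scale) and in the Ezh2-deficient library (vertical axis, CPM, log scale); each point is 1 of 13477 genes, the solid line marks equal levels and the dotted lines 2-fold differences. The 348 orange genes lie above and the 448 blue genes below; Ibsp is the orange gene at the upper right, with 8237 and 29884 CPM, and Tmem158 stands farthest from the line.

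Genes of mitosis lay lower in the mutant at day 14. All 42 listed genes of mitosis and the spindle were lower in the Ezh2-deficient library, 37 of them past the size rule (88.1% of the list, against 3.32% of all genes compared) and none in the other direction, with a median log2 difference of -1.37 against 0.01 for all genes compared. Ccnb1, the cyclin that drives entry into mitosis, stood at 18.3 against 25.9 CPM (day 3), 84.4 against 51.6 CPM (day 7) and 57.5 against 17.7 CPM (day 14). The mutant was thus the higher of the pair at day 3 and the lower at days 7 and 14, 3.25-fold lower (2.93 to 3.61) at day 14. Top2a, the topoisomerase that untangles replicated chromosomes, stood at 96.02 against 116 CPM (day 3), 388 against 240.4 CPM (day 7) and 265 against 101 CPM (day 14), and was 2.62-fold lower (2.51 to 2.74). Mki67, the proliferation marker Ki-67, stood at 90.8 against 117 CPM (day 3), 422 against 278 CPM (day 7) and 279.6 against 113 CPM (day 14), and was 2.48-fold lower (2.37 to 2.58). For all 3 genes both genotypes were higher at day 7 than at day 3 and lower again at day 14, and the wildtype level at day 14 stayed above its day 3 level while the mutant level lay below its own.

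Other mitotic genes had gaps of like size at day 14. Cenpf, a protein of the kinetochore, was 103 against 30.8 CPM at day 14 and Bub1, a kinase of the spindle checkpoint, was 32.3 against 10.3 CPM. Nusap1 and Nuf2, which bind spindle microtubules and the kinetochore, were 43.9 against 13.3 CPM and 33.4 against 11.2 CPM. For the list, the median log2 difference was 0.33 (day 3), -0.74 (day 7) and -1.37 (day 14). All 42 members had been higher in the mutant at day 3. From day 7 to day 14 the median member changed its level by -0.58 on the log2 scale in the wildtype and by -1.20 in the mutant libraries.

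Genes of DNA replication lay on the same side with smaller differences. All 40 listed genes were lower in the mutant, 6 of them past the size rule (15% of the list, against 3.32% of all genes), with a median of -0.70. Rrm2, which makes deoxynucleotides, was 75.3 against 30.8 CPM, E2f8, an atypical E2F repressor, was 15.7 against 5.79 CPM, and Mcm10, which loads replication factors, was 11.8 against 5.10 CPM. Of 8 genes for inhibitors of cyclin-dependent kinases, none was apart on the higher side. Cdkn1a, the p53 target p21, was 407 against 636 CPM, Cdkn2a, the INK4a/ARF locus that PRC2 is known to repress, was 21.7 against 25.4 CPM, and Cdkn2b was 28.3 against 33.9 CPM. Cdkn3, a phosphatase whose expression follows the cell cycle, was the member past the rule, at 9.98 against 3.68 CPM.

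Mitotic genes are known to share promoter elements, the cell cycle genes homology region and nearby CCAAT boxes, through which they are held silent or switched on together. Promoter windows of 300 bases around the annotated start (RefSeq, GRCm38.p6) were at hand for 33 of the 42 mitotic genes. The run TTTGAA, searched on both strands, was in 24 of the 33 (72.73%), against 20.23% of 27025 genes with a window and 21.88% of 32 replication genes. CCAAT, likewise on both strands, was in 23 of the 33 (69.7%), against 41.06% of all genes. Both were in 20 of the 33 (60.61%), against 8.973% of all genes. Windows of 3 members that hold both are printed 5′ to 3′ along the gene, chosen after their values were seen, with the matches in capitals: Cdc20 (chr4:118437294-118437593, minus strand), the activator of the anaphase-promoting complex, at 44.7 against 17.04 CPM; Plk1 (chr7:122159185-122159484, plus strand), a mitotic kinase, at 31.4 against 14.2 CPM; and Ube2c (chr2:164769679-164769978, plus strand), the ubiquitin-conjugating enzyme of that complex, at 23.9 against 11.8 CPM.
Cdc20: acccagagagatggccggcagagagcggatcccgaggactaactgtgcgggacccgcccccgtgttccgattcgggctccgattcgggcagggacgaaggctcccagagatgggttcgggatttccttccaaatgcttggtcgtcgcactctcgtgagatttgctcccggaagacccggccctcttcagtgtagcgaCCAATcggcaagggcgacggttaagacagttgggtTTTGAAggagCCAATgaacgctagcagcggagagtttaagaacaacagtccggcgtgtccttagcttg
Plk1: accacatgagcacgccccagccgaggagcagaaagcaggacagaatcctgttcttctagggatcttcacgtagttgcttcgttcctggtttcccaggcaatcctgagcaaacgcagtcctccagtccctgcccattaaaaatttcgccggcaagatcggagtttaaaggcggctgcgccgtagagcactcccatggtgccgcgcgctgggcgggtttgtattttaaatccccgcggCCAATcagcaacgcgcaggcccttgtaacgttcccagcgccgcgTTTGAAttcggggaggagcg
Ube2c: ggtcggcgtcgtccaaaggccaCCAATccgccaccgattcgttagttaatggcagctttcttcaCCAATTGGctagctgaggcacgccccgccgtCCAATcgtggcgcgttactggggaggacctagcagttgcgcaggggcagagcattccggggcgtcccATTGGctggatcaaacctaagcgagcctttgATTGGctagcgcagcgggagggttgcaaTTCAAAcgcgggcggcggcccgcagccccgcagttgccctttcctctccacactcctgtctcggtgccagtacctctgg
In Cdc20 and Plk1 the capitals show TTTGAA on the printed strand with CCAAT close by, and in Ube2c the run lies on the other strand and reads TTCAAA. The second run of capitals in Ube2c holds CCAAT on each strand, overlapping. A match describes letters in these windows and does not show that a factor was bound. The list is made of known mitotic genes, whatever their difference at day 14. The shares therefore describe the list and not the genotypes.

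Cartilage matrix genes were lower as well, and those low at day 14 included genes that had been level between the genotypes at day 3. Of 27 listed matrix genes, 24 were lower in the mutant and 8 past the size rule (29.63%, against 3.32% of all genes), with none past it on the higher side and a median of -0.79 (-0.54 at day 7 and -0.12 at day 3). Matn1, matrilin-1, which links collagen and proteoglycan in growing cartilage, stood at 4401 against 5047 CPM (day 3), 3289 against 1836 CPM (day 7) and 828 against 166 CPM (day 14). Both genotypes were far below their day 3 level at day 14, and the mutant was 4.98-fold lower (4.83 to 5.14). Ucma, a secreted protein of the upper growth plate, stood at 591 against 345 CPM (day 3), 733 against 356 CPM (day 7) and 101 against 16.6 CPM (day 14). The mutant was the lower library on each day, and 6.05-fold lower (5.48 to 6.70) at day 14. Clec3a, a cartilage lectin, stood at 1180.5 against 722 CPM (day 3), 1055 against 473 CPM (day 7) and 939 against 246 CPM (day 14), and was 3.81-fold lower (3.71 to 3.91), again below its partner on each day.

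Acan, the aggrecan core protein that holds water in cartilage, stood at 14421 against 12072 CPM (day 3), 4828 against 2881 CPM (day 7) and 2753 against 1347 CPM (day 14), and was 2.04-fold lower (2.02 to 2.07) at day 14. Lect1, which encodes chondromodulin, an inhibitor of vessel growth into cartilage, was 705 against 288 CPM, Matn3, a further matrilin, was 351 against 135 CPM, and Epyc, the small proteoglycan epiphycan, was 117 against 33.9 CPM. Among the collagens of cartilage, Col2a1 was 1.77-fold (1.76 to 1.77) and Col9a1, which coats the type II fibril, 1.74-fold (1.71 to 1.77) lower in the mutant, short of the size rule. Comp, which binds these collagens, was 1781 against 1564 CPM. The matrix genes differed by unequal amounts, from -2.60 for Ucma on the log2 scale to 0.41 for Col11a2, a minor collagen of the type II fibril and 1 of the 3 members that were higher, named after its values were seen. Of 22 genes for cartilage transcription factors and sulphation, 17 were lower and 2 past the rule on that side, Foxa2, a factor of hypertrophic chondrocytes, at 7.86 against 2.37 CPM and Barx1, a joint homeobox factor, at 24.9 against 11.3 CPM. Sox5, a partner of Sox9, was 35.1 against 18.1 CPM and Papss2, whose product makes the sulphate donor used on proteoglycans, was 284 against 157 CPM. Galnt3, which starts sugar chains on secreted proteins such as Fgf23, was past the rule on the higher side, at 53.5 against 121 CPM.

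S100b, a calcium-binding protein of glia that cartilage also expresses, was 97.8 against 31.4 CPM and is counted among 8 measured neural and glial markers, none of the others of which was apart. Of 13 genes of the joint surface zone, 11 were lower and 2 higher, with a median of -0.46 (0.09 at day 3 and -0.07 at day 7). On the lower side 2 were past the rule (15.38%, against 3.32% of all genes), where 1 gene of the list had been on each earlier day. They were Sfrp5, a Wnt inhibitor, at 21.9 against 5.65 CPM and Dpt, dermatopontin, at 11.99 against 2.70 CPM. Prg4, the lubricin gene that defines the zone, was 18.98 against 18.1 CPM.

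**Figure D2:**
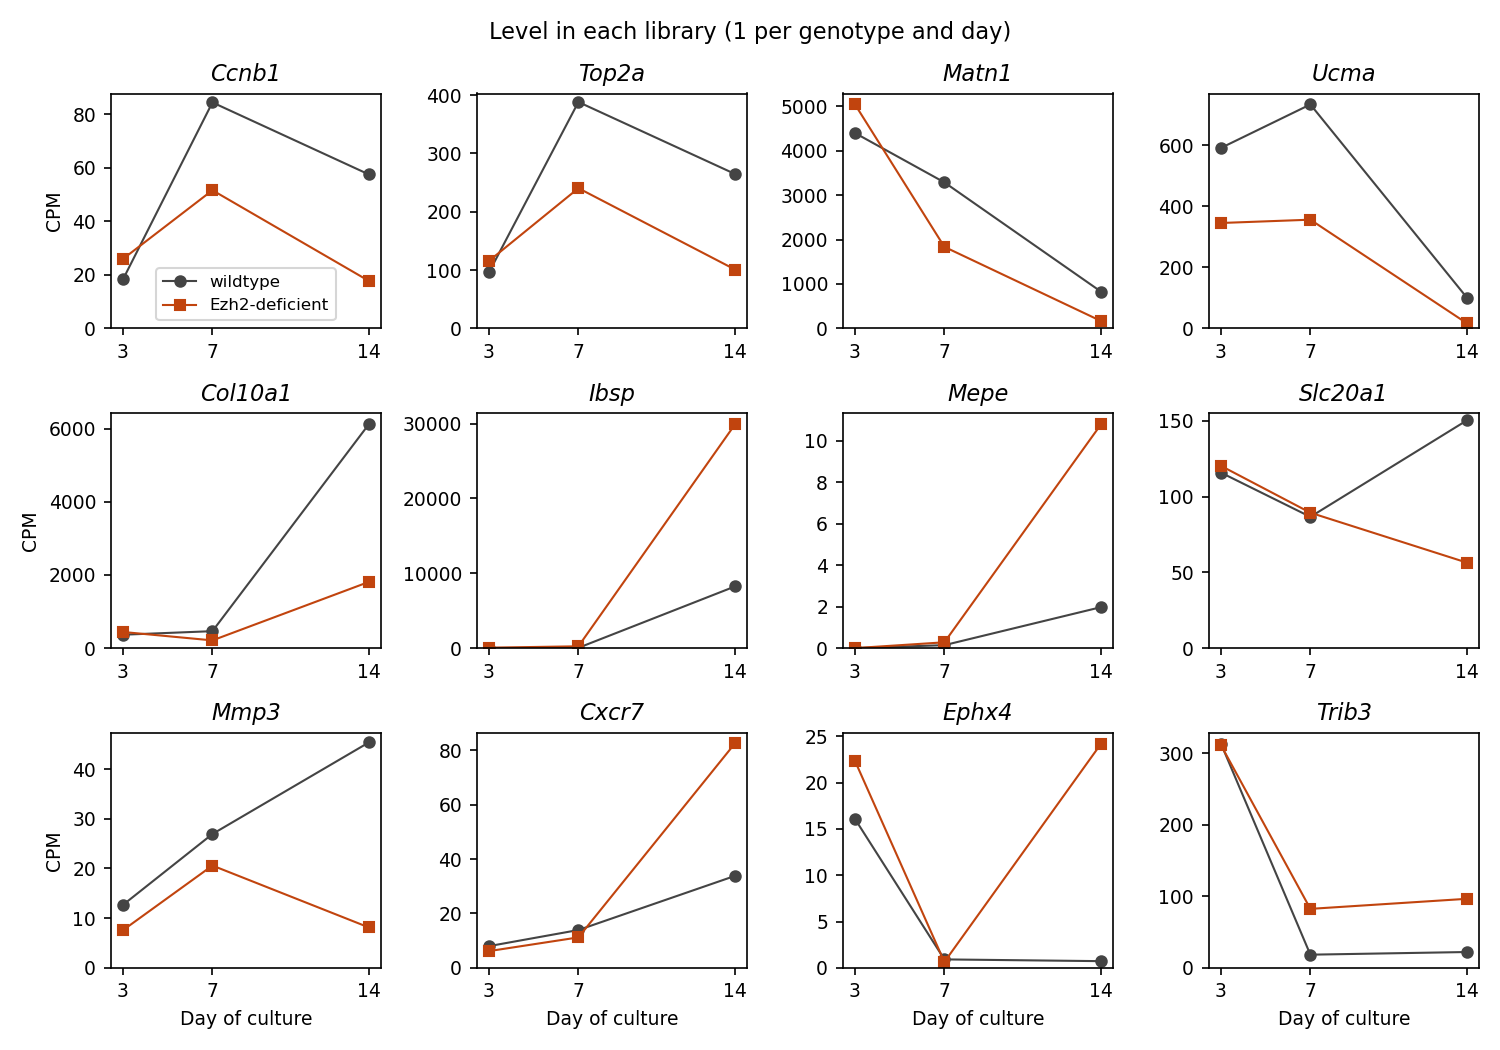
Level (vertical axes, CPM, each from 0) of 12 genes on days 3, 7 and 14 (horizontal axes), with 1 library per point; grey circles are wildtype and orange squares Ezh2-deficient. Ccnb1 and Top2a cross between days 3 and 7, Col10a1 and Ibsp lie apart in opposite directions at days 7 and 14, and Slc20a1 lies level on the earlier days and apart at day 14.

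Col10a1 and Ibsp lay on opposite sides at day 14, and had done so at day 7. The hypertrophic and osteoblast lists given below both had medians above 0 at day 14 (0.24 and 0.56). Col10a1, the collagen that marks hypertrophic chondrocytes, stood at 366 against 441 CPM (day 3), 463 against 211 CPM (day 7) and 6127 against 1812 CPM (day 14). Both genotypes were higher at day 14 than earlier, and the mutant reached a level 3.38-fold lower (3.35 to 3.42). Ibsp, bone sialoprotein, which seeds mineral in bone matrix, stood at 14.4 against 56.2 CPM (day 3), 40.5 against 243 CPM (day 7) and 8237 against 29884 CPM (day 14), and was 3.63-fold higher (95% counting interval 3.61 to 3.65) at day 14. The mutant was thus low for Col10a1 and high for Ibsp at day 14, and both were past the size rule in the same directions at day 7. The Ibsp ratio was 3.92-fold at day 3 and 5.99-fold at day 7, so day 14 had the highest levels but the smallest ratio of the 3 days. Per transcript length, Ibsp was the top-ranked transcript of the mutant library and the transcript with rank 4 of the wildtype library, while Col10a1 had rank 88 and rank 13. Ibsp took 2.863% of all counts in the mutant and 0.8351% in the wildtype library.

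Other genes of the hypertrophic list lay on both sides. Of 24 genes, 13 were higher and 11 lower, with a median of 0.24. Ibsp was past the rule on the higher side (4.167%, against 2.58% of all genes). Col10a1, Stmn1 and Scin were past it on the lower (12.5%, against 3.32%). Ihh, a hedgehog ligand that prehypertrophic chondrocytes secrete, was 63.8 against 51.2 CPM, Mmp13, the collagenase of the last hypertrophic cells, was 1800.3 against 1383 CPM, and Spp1, osteopontin, was 5698 against 3747 CPM. Pth1r, the receptor that slows hypertrophy, was 446 against 809.7 CPM and Runx2, the factor that drives hypertrophy and bone formation, was 228 against 258 CPM. Mmp13 had stood at 658 against 1302 CPM at day 7, so its order within the pair was the other way round there.

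Among 47 genes of osteoblasts and mineralisation, 33 were higher in the mutant, 12 of them past the size rule (25.53% of the list, against 2.58% of all genes), and 5 past it on the lower side (10.64%, against 3.32%), with a median of 0.56. The 5 on the lower side were Bmp7, Enpp1, Msx2, Slc20a1 and Mgp, 3 of which also stand in the list of phosphate handling below. At days 3 and 7 the mutant had been higher for 36 and 33 of the 47, with medians of 0.39 and 0.29. Past the rule were 7 and 8 on the higher side and none on the lower. Mepe, a phosphoprotein of osteocytes, had no counts on day 3, 0.142 against 0.280 CPM (day 7) and 1.97 against 10.8 CPM (day 14), where it was 5.46-fold higher (95% counting interval 4.06 to 7.48). Bglap, osteocalcin, was 70.9 against 157 CPM, Bglap2, its near-identical neighbour between which reads can be split, was 16.3 against 42.4 CPM, and Phex, an endopeptidase of osteocytes that keeps phosphate in the body, was 86.8 against 194 CPM. Sost, sclerostin, the osteocyte inhibitor of Wnt signals, was 2.24 against 6.26 CPM. Sp7, the factor that fixes the osteoblast fate, was 172 against 306 CPM and Alpl, the phosphatase that frees phosphate for mineral, was 1011 against 1888 CPM, both below the 2-fold limit. Dmp1, also of osteocytes, was 0.302 against 1.13 CPM (day 3), 2.73 against 16.03 CPM (day 7) and 153 against 205 CPM (day 14). Its difference at day 14 was the smallest of the 3 days on the log2 scale (0.42 against 2.54 at day 7).

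Type I collagen transcripts, the bulk of bone matrix, were Col1a1 at 34543 against 62848 CPM and Col1a2 at 26735 against 52214 CPM, 1.82-fold (1.81 to 1.82) and 1.95-fold (1.95 to 1.96) higher in the mutant. Per transcript length, Col1a1 had rank 1 and rank 2, above Col2a1 in both libraries. Periostin (Postn), a matrix protein of periosteum and ligament, was 362 against 789.5 CPM, and Serpinf1, which encodes PEDF, the factor whose loss impairs bone mineral, was 301 against 690.5 CPM. Other collagens were mixed, with 2 of 31 genes for fibrous collagens and their crosslinking apart on each side (6.452%). Over all genes the shares were 2.58% higher and 3.32% lower. Col15a1, a basement membrane collagen also made by early osteoblasts, was 132 against 119 CPM (day 3), 41.2 against 67.3 CPM (day 7) and 18.7 against 77.5 CPM (day 14), and Col8a1, a short-chain collagen, was 178 against 409.8 CPM. Col6a3, of the pericellular matrix, was 1159.6 against 1195 CPM (day 3), 2364 against 2152 CPM (day 7) and 3309.5 against 1481 CPM (day 14), and Col5a3 was 20.9 against 33.1 CPM (day 3), 103 against 117 CPM (day 7) and 106 against 45.5 CPM (day 14). Neither of the lower collagens was past the size rule at days 3 or 7, and at day 14 both were.

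Genes of phosphate and pyrophosphate handling, which feed or restrain mineral, were lower for the larger part. Of 15 such genes, 11 were lower, 3 past the rule (20%, against 3.32% of all genes), and 1, Phex, was past it on the higher side (6.667%, against 2.58%). Enpp1, which makes pyrophosphate, the inhibitor of mineral growth, stood at 49.9 against 39.96 CPM (day 3), 108 against 66.6 CPM (day 7) and 123 against 40.2 CPM (day 14), and was 3.07-fold lower (2.86 to 3.29). Mgp, matrix Gla protein, a further inhibitor of calcification, stood at 3076 against 2123 CPM (day 3), 1978 against 1162 CPM (day 7) and 1682 against 667 CPM (day 14), and was 2.52-fold lower (2.48 to 2.56). For both genes the mutant was the lower library on each day and the gap was widest at day 14. Slc20a1, the phosphate importer Pit-1, stood at 116 against 120.4 CPM (day 3), 86.7 against 89.4 CPM (day 7) and 150.4 against 56.5 CPM (day 14). It was level between the genotypes on the earlier days and 2.66-fold lower (2.51 to 2.83) at day 14, where the wildtype held the highest and the mutant the lowest of the 6 values.

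Bone morphogenetic proteins and their antagonists went both ways. Bmp8b was 0.493 against 4.19 CPM, Bmp8a 12.7 against 36.8 CPM and Bmp4 18.5 against 43.5 CPM, 3 ligands higher in the mutant. Bmp7, a ligand of the same family, was 3.07 against 0.546 CPM, 5.63-fold lower (3.22 to 10.5). Noggin (Nog), a secreted antagonist, was 22.8 against 14.2 CPM (day 3), 21.9 against 20.9 CPM (day 7) and 22.8 against 48.6 CPM (day 14), and Chrdl1, a chordin-like antagonist, was 102 against 196 CPM (day 3), 196 against 233 CPM (day 7) and 237 against 107 CPM (day 14). Nog was lower in the mutant at day 3 and higher at day 14, while Chrdl1 took the other course. Over the 30 genes of the family at 1 CPM or more, 4 were apart on the higher side (13.33%, against 2.58% of all genes) and 2 on the lower (6.667%, against 3.32%). The median was 0.06, a value whose sign depended on the scaling.

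Of 32 genes of insulin-like and fibroblast growth factor signalling, 5 were past the rule on the higher side (15.62%, against 2.58% of all genes), where 7 had been at day 7, and 1, Etv4, a factor that follows fibroblast growth factor signals, past it on the lower side, at 8.27 against 3.86 CPM. Igf1, the growth factor itself, was 215 against 527 CPM, and Pappa and Pappa2, proteases that free it from its binding proteins, were 18.4 against 59.5 CPM and 45.6 against 169 CPM. Among Wnt genes, Wnt16 was 1.52 against 5.28 CPM, Wnt10b, which favours bone over fat, 8.65 against 18.3 CPM, and Rspo1, an R-spondin that strengthens Wnt signals, 0.190 against 1.06 CPM, while the antagonists Dkk1 at 7.32 against 18.3 CPM and Sfrp1 at 9.15 against 30.2 CPM were higher too. Of 11 secreted Wnt antagonists, 3 were past the rule on the higher side (27.27%, against 2.58% of all genes). Sfrp5, given above, was past it on the lower side (9.091%, against 3.32%). Of the 23 Wnt ligands, R-spondins and targets, 3 were apart on the higher side (13.04%, against 2.58%) and none on the lower. The median of these 23 was 0.25, or 0.07 over the members with at least 5 CPM.

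Developmental regulators of the kind PRC2 typically silences stayed low for the larger part. Of 71 in the table, 35 reached 1 CPM at day 14 and 9 had no counts in either library. Among the 35, 5 were apart on the higher side (14.29%, against 2.58% of all genes) and 1 on the lower (2.857%, against 3.32%). On the higher side 4 (11.43%) had been apart at day 3 and 3 (8.571%) at day 7. The median was 0.40 (day 3), 0.13 (day 7) and 0.23 (day 14). Alx4, a homeobox factor of the skull and limb, was 2.28 against 6.48 CPM, and Irx5, of the Iroquois family, was 24.1 against 53.5 CPM. Among 25 Hox genes, 3 were past the rule on the higher side (12%, against 2.58% of all genes) and 2 on the lower (8%, against 3.32%). Hoxb9, Hoxb2 and Hoxb3 were higher, at 0.342 against 1.603 CPM, 0.645 against 2.73 CPM and 0.531 against 1.38 CPM. Hoxa13 and Hoxa11, of the distal limb, were lower, at 1.18 against 0.437 CPM and 22.4 against 11.1 CPM. The 3 Hoxb genes had been lower in the mutant at day 3, with log2 differences of -1.47, -0.54 and -0.92, and each stood under 1 CPM in both libraries of that day.

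Genes of the amino acid stress response, which the factor Atf4 switches on when amino acids run short or secretion is strained, lay higher in the mutant. Of 28 genes, 26 were higher, 11 past the rule (39.29%, against 2.58% of all genes) and none past it on the lower side, with a median of 0.83. Trib3, a pseudokinase that feeds back on Atf4, stood at 313 against 311 CPM (day 3), 18.4 against 82.3 CPM (day 7) and 22.1 against 96.4 CPM (day 14), and was 4.36-fold higher (95% counting interval 3.99 to 4.78). Chac1, which degrades glutathione, was 151 against 103 CPM (day 3), 10.7 against 45.8 CPM (day 7) and 17.99 against 60.8 CPM (day 14), Nupr1, a stress-induced chromatin protein, was 238 against 225 CPM (day 3), 47.5 against 163 CPM (day 7) and 116 against 371 CPM (day 14), and Asns, which makes asparagine, was 56.5 against 162 CPM. For Trib3 and Nupr1 the pair was level at day 3, and the wildtype library was lower than at day 3 on both later days. The list's median was 0.00 at day 3 and 0.89 at day 7, so day 14 did not exceed day 7. Genes of the endoplasmic reticulum chaperones, a separate branch of the stress response, had a median of -0.01, with 0 of 27 apart in either direction.

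The C/EBP-ATF response element is the sequence that Atf4 is known to bind. The letters TGATGNAA, searched on both strands, were in the 300-base windows of 9 of 24 of these genes (37.5%), against 4.511% of 27025 genes. Windows of the 3 genes whose levels are given on each day are printed with the match in capitals, which lies on the other strand in each: Trib3 (chr2:152344011-152344310, minus strand), Chac1 (chr2:119350992-119351291, plus strand) and Nupr1 (chr7:126625421-126625720, minus strand), from RefSeq, GRCm38.p6.
Trib3: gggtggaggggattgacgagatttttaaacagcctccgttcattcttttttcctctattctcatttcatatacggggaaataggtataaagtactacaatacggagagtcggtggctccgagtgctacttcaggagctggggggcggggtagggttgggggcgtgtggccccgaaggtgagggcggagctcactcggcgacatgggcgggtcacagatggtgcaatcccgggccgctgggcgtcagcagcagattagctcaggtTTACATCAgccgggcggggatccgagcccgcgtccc
Chac1: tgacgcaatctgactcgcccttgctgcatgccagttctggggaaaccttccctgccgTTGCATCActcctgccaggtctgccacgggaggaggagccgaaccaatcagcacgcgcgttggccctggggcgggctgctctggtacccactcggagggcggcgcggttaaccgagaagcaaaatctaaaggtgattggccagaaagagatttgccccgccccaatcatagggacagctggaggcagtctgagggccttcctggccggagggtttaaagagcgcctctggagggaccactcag
Nupr1: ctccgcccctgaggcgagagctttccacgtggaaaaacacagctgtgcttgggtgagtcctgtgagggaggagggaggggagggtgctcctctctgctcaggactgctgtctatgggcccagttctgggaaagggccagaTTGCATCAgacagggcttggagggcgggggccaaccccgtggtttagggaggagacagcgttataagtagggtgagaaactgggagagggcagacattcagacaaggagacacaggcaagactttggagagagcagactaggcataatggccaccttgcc
In Trib3 the match lies close to the annotated start and in Chac1 far upstream of it. No binding was measured. The list is made of known Atf4 response genes, whatever their difference at day 14. A high share of the element follows from that choice and says nothing about the genotypes.

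Interferon-stimulated genes lay higher too. Of 36 genes of the type I response, 34 were higher and 7 past the rule (19.44%, against 2.58% of all genes), with a median of 0.55 at day 14 and 0.79 at day 7. Isg15, a ubiquitin-like protein, was 3.27 against 4.67 CPM (day 3), 36.4 against 91.5 CPM (day 7) and 19.6 against 46.4 CPM (day 14), Ifi44 was 9.68 against 32.6 CPM, and the antiviral GTPases Mx1 and Mx2 were 1.63 against 4.63 CPM and 1.97 against 5.46 CPM. The interferon core motif GAAANNGAA was in the windows of 15 of 26 of these genes (57.69%), against 9.761% of all genes. That share likewise describes a list of known interferon genes and not the genotypes. Of the interferon-inducible GTPases, Gbp4 was 0.121 against 0.0809 CPM (day 3), 0.853 against 0.865 CPM (day 7) and 0.569 against 2.26 CPM (day 14), higher in the mutant at day 14 after no excess on the earlier days.

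**Figure D3:**
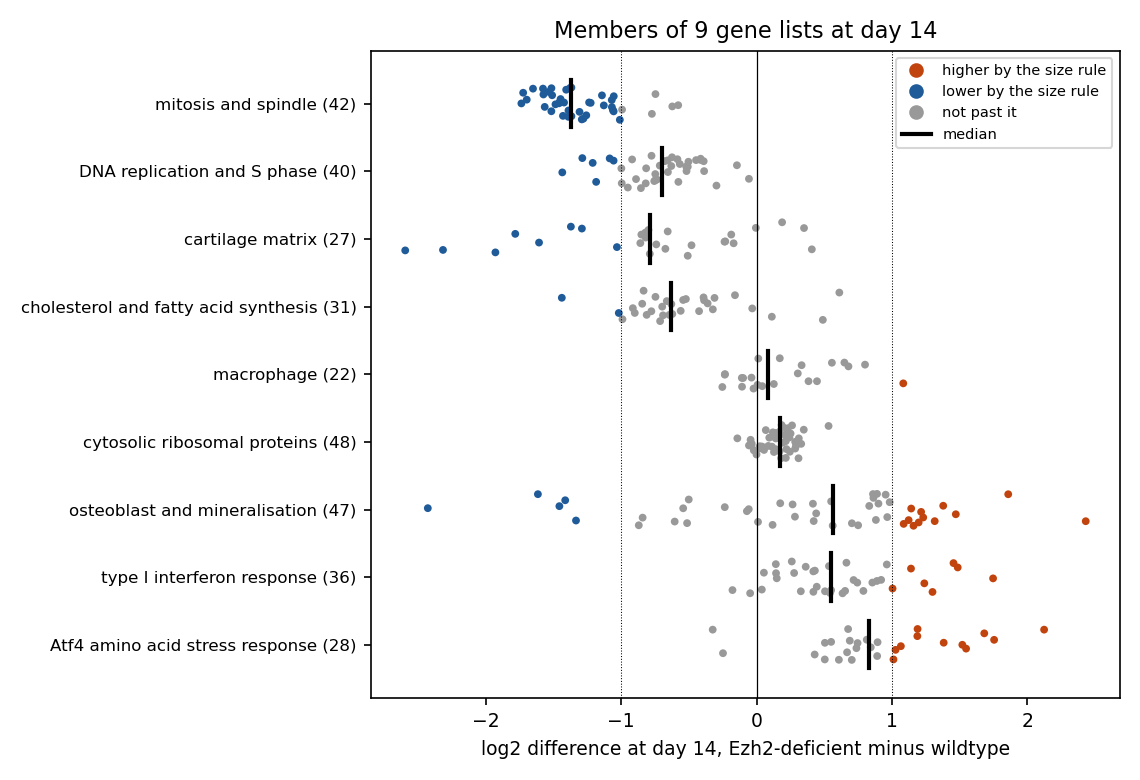
Log2 difference at day 14 (horizontal axis, Ezh2-deficient minus wildtype) of each measured member of 9 gene lists (rows, number of members in brackets); orange and blue points are past the size rule, grey points are not, black bars are medians and dotted lines mark 2-fold. All 42 mitotic genes lie to the left of 0, 26 of the 28 Atf4 genes lie to the right, and the ribosomal protein genes stay near 0.

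Signalling and early response genes gave smaller counts. Of 12 genes of the Notch pathway, 2 were past the rule on the higher side (16.67%, against 2.58% of all genes). They were Jag2, a ligand, at 1.52 against 4.33 CPM, and Mfng, which modifies the receptors, at 1.14 against 2.51 CPM. Jag2 had been lower in the mutant at day 7, at 1.42 against 0.763 CPM. Of 20 immediate early genes, which respond within minutes to growth factors or handling, 14 were higher and 3 past the rule (15%, against 2.58% of all genes), with a median of 0.53 at day 14 and -0.04 at day 7. Fos was 11.4 against 23.3 CPM, Ier2 14.9 against 34.6 CPM and Nr4a1, a nuclear receptor, 17.04 against 37.8 CPM, while Fosl1, a partner of Jun in proliferating cells, was 3.34 against 1.603 CPM. Of 19 genes of transforming growth factor β signalling, 2 targets that act in the matrix were past the rule on the lower side (10.53%, against 3.32% of all genes) and none on the higher. Ctgf stood at 589 against 654 CPM (day 3), 801 against 521 CPM (day 7) and 547 against 242 CPM (day 14). Tgfbi stood at 314 against 287 CPM (day 3), 135 against 130.1 CPM (day 7) and 124 against 59.3 CPM (day 14). For Tgfbi the pair was near level on the earlier days, and the mutant day 14 library held the lowest of the 6 values.

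Connective tissue genes went both ways. Of 27 genes of tendon and fibroblasts, 2 were past the rule on the higher side (7.407%, against 2.58% of all genes) and 3 on the lower (11.11%, against 3.32%). The median of the 27 was 0.39 (day 3), 0.28 (day 7) and -0.13 (day 14). Mfap4, of elastic fibres, was 21.8 against 50.8 CPM and Postn, given above, was the other on the higher side. Dpt, Ctgf and Tgfbi made up the lower side. Aebp1, a collagen-binding protein, was 298 against 249 CPM (day 3), 513 against 489.9 CPM (day 7) and 591 against 282 CPM (day 14). Of 13 small leucine-rich proteoglycans, Podn was lower at 14.95 against 6.41 CPM beside Epyc, while Aspn, asporin, was 236 against 383 CPM and Dcn, decorin, named after its values were seen, 820.2 against 545 CPM.

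Cholesterol genes had another course. Of 31 genes of cholesterol and fatty acid synthesis, 28 were lower in the mutant at day 14, but 2 were past the size rule (6.452%, against 3.32% of all genes), Idi1 among them. The median was 0.43 (day 3), 0.15 (day 7) and -0.63 (day 14), so the mutant was the higher of the pair at day 3 and the lower at day 14. Idi1, which makes the isoprenoid building block, stood at 128 against 195 CPM (day 3), 119.6 against 121 CPM (day 7) and 165 against 81.4 CPM (day 14), and was 2.03-fold lower (1.92 to 2.13). Hmgcs1, which makes the precursor of mevalonate, stood at 381 against 520.3 CPM (day 3), 289.7 against 299 CPM (day 7) and 434 against 232 CPM (day 14). Insig1, which holds the sterol sensor in place, stood at 237 against 446 CPM (day 3), 147 against 139 CPM (day 7) and 185 against 93.2 CPM (day 14). Among the 3 members that were higher were Fasn and Scd1, enzymes of fatty acid synthesis named after their values were seen, at 435 against 611 CPM and 934 against 1427 CPM.

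Some inflammatory genes and matrix proteases were lower. Mmp3, stromelysin, which cleaves proteoglycan, stood at 12.7 against 7.58 CPM (day 3), 26.9 against 20.6 CPM (day 7) and 45.4 against 8.12 CPM (day 14). The wildtype level was highest at day 14 and the mutant level lay below its day 7 value, 5.59-fold lower (4.84 to 6.48). Chi3l1, a chitinase-like glycoprotein of inflamed cartilage, stood at 48.4 against 17.7 CPM (day 3), 27.05 against 31.2 CPM (day 7) and 34.6 against 5.14 CPM (day 14), and was 6.74-fold lower (5.64 to 8.11). Lcn2 and Saa3, acute-phase proteins, were 4.48 against 1.46 CPM and 3.38 against 1.17 CPM. These made 4 of 22 inflammatory mediators past the rule on the lower side (18.18%, against 3.32% of all genes), with 1, Orm1, past it on the higher side (4.545%, against 2.58%) and a median of -0.08. Il1rl1, the receptor of interleukin-33, stood at 6.35 against 9.03 CPM (day 3), 19.97 against 23.5 CPM (day 7) and 43.4 against 13.4 CPM (day 14), and was 3.24-fold lower (2.88 to 3.65). Il1rn, the natural antagonist of interleukin-1, stood at 8.19 against 16.1 CPM (day 3), 58.6 against 104 CPM (day 7) and 58.97 against 36.7 CPM (day 14), so it was the higher of the pair in the mutant until day 7 and the lower at day 14.

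Complement and chemokine genes were mixed. Of 15 complement genes 2 were past the rule, both on the higher side (13.33%, against 2.58% of all genes). Serping1, an inhibitor of complement and 1 of them, was 39.96 against 106 CPM. Among 18 chemokines, 2 were past the rule on the higher side (11.11%, against 2.58% of all genes) and 1 on the lower (5.556%, against 3.32%). Cxcl9 and Cxcl1 were higher, at 0.721 against 2.15 CPM and 0.721 against 2.00 CPM, and Cxcl2 was lower, at 1.14 against 0.473 CPM. Among 17 matrix metalloproteinases and their inhibitors, 3 were past the rule on the lower side (17.65%, against 3.32% of all genes). They were Mmp3, Mmp10 at 1.86 against 0.291 CPM and Mmp8, the neutrophil collagenase, at 3.34 against 1.57 CPM. Mmp28 and Mmp17 were past it on the higher side (11.76%, against 2.58%), at 2.69 against 7.65 CPM and 0.759 against 1.93 CPM.

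Metabolic and housekeeping lists held few or no genes past the rule. Of 39 genes of glycolysis and the response to low oxygen, 32 were lower, 1 past the rule, Car9, the carbonic anhydrase that hypoxia induces, at 333 against 166 CPM, and the median was -0.33 (-0.46 at day 7). Of 48 cytosolic ribosomal protein genes none was apart, and the median was 0.17 after -0.22 at day 3. Of 42 genes of oxidative phosphorylation none was apart. Of 19 genes of Polycomb repressive complex 1, which reads the mark of PRC2, none was apart, and Cbx2, its chromobox subunit, was 3.57 against 5.61 CPM.

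Genes with the widest gaps at day 14 included several outside these lists. On the higher side Avil, advillin, an actin-binding protein of sensory neurons, stood at 269 against 243 CPM (day 3), 4.32 against 31.5 CPM (day 7) and 2.73 against 32.7 CPM (day 14). Scg2, secretogranin II of secretory granules, was 0.242 against 0.728 CPM (day 3), 0.540 against 3.79 CPM (day 7) and 1.56 against 15.01 CPM (day 14), and Gal, the neuropeptide galanin, was 0.0605 against 0.0270 CPM (day 3), 0 against 0.0254 CPM (day 7) and 2.50 against 22.1 CPM (day 14). Ptprz1, a receptor phosphatase that binds pleiotrophin, was 0.423 against 3.99 CPM (day 3), 0.171 against 4.91 CPM (day 7) and 59.1 against 408 CPM (day 14). Gal was under the floor of 3 fragments in the 4 earlier libraries. Avil was lower in the mutant at day 3 and the wildtype level was far below it on both later days, while Scg2 and Ptprz1 were higher in the mutant on each day. Ostn, osteocrin, a peptide of bone and muscle, was 2.20 against 12.4 CPM, Lipc, hepatic lipase, 7.06 against 54.7 CPM, and Slc13a5, a citrate importer, 208 against 506 CPM. Col22a1, a collagen of tissue junctions, was 117 against 335 CPM, and Gpr141, an orphan receptor, was 2.09 against 4.34 CPM (day 3), 2.82 against 4.17 CPM (day 7) and 2.88 against 23.5 CPM (day 14), higher in the mutant on each day with the widest gap at day 14.

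On the lower side Mcoln3, a lysosomal cation channel, was 1.24 against 0.539 CPM (day 3), 6.74 against 1.27 CPM (day 7) and 8.31 against 1.24 CPM (day 14), lower in the mutant on each day. Aldh3a1, an aldehyde dehydrogenase, was 2.36 against 2.29 CPM (day 3), 10.3 against 4.10 CPM (day 7) and 8.73 against 1.31 CPM (day 14), and Mt1, the metal-binding metallothionein, was 69.7 against 70.1 CPM (day 3), 71.5 against 32.95 CPM (day 7) and 65.05 against 15.7 CPM (day 14). Both were level at day 3 and the gap was wider at day 14 than at day 7. Cdh17, a cadherin of the gut, was 0.151 against 0.216 CPM (day 3), 2.16 against 2.85 CPM (day 7) and 5.73 against 1.42 CPM (day 14), higher in the mutant until day 7 and lower at day 14. Pof1b, Klk10 and Slc6a17 were 9.60 against 1.78 CPM, 5.65 against 1.347 CPM and 10.7 against 2.59 CPM.

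Markers of other cells were also compared. Of 22 macrophage genes, 1, Cd14, was apart (4.545%, against 2.58% of all genes), at 22.9 against 48.6 CPM, and the median was 0.08. Csf1r, the receptor that macrophages need, was 177 against 260.3 CPM, and Lyz2 was 1148 against 1799.9 CPM. Outside this list, 3 genes among the 15 with the largest lower differences are known from antigen presenting or scavenging cells: Cd74, the invariant chain of class II molecules, was 12.1 against 2.91 CPM, Marco, a scavenger receptor, 5.73 against 1.17 CPM, and Cd207, langerin, 5.31 against 0.983 CPM. Of 12 genes of the osteoclast list, 1 was past the rule, on the lower side (8.333%, against 3.32% of all genes). It was Atp6v0d2, an osteoclast proton pump subunit, at 42.96 against 17.3 CPM. Acp5 and Ctsk, enzymes of osteoclasts, were 11.5 against 14.02 CPM and 270.0 against 179 CPM. Of 18 adipocyte genes, 14 were higher and 2 past the rule (11.11%, against 2.58% of all genes), with a median of 0.63 at day 14 and 1.28 at day 3, and a summed level at day 14 of 1560.0 against 2215 CPM. Fabp4, a fatty acid carrier of fat cells and macrophages, was 44.97 against 87.04 CPM. Of 12 smooth muscle genes, 9 were higher, with a median of 0.42 (0.73 at day 3 and 0.76 at day 7). Past the rule was 1, Cnn1, calponin (8.333%, against 2.58% of all genes), at 1.02 against 3.24 CPM. Acta2 was 122 against 133 CPM. The part of these cells in the differences above was not tested.

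Sex-linked and strain-linked genes also differed within the pair. Xist, the RNA of the inactive X chromosome, stood at 1061 against 844 CPM (day 3), 1133 against 678 CPM (day 7) and 1221 against 512 CPM (day 14). The Y-linked genes Ddx3y, Eif2s3y, Kdm5d and Uty were higher in the mutant, at 31.7 against 81.8 CPM, 12.7 against 37.5 CPM, 7.63 against 23.5 CPM and 8.50 against 27.8 CPM at day 14. Both Xist and Y-linked transcripts were present in each day 14 library. Of the 5 measured sex-linked genes, 4 were higher and 1 lower in the mutant on each day. Their median log2 difference was 0.43 (day 3), 0.99 (day 7) and 1.56 (day 14), so the sex-linked difference was not the same in the 3 pairs. Nnt, a mitochondrial transhydrogenase whose gene is disrupted in the C57BL/6J substrain, stood at 57.5 against 24.03 CPM (day 3), 55.01 against 22.7 CPM (day 7) and 53.5 against 19.7 CPM (day 14), lower in the mutant by a like amount on each day. The part of sex and strain in the day 14 differences, and in their change from the earlier days, was not tested. With 1 library a side they cannot be told apart from genotype.

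**Figure D4:**
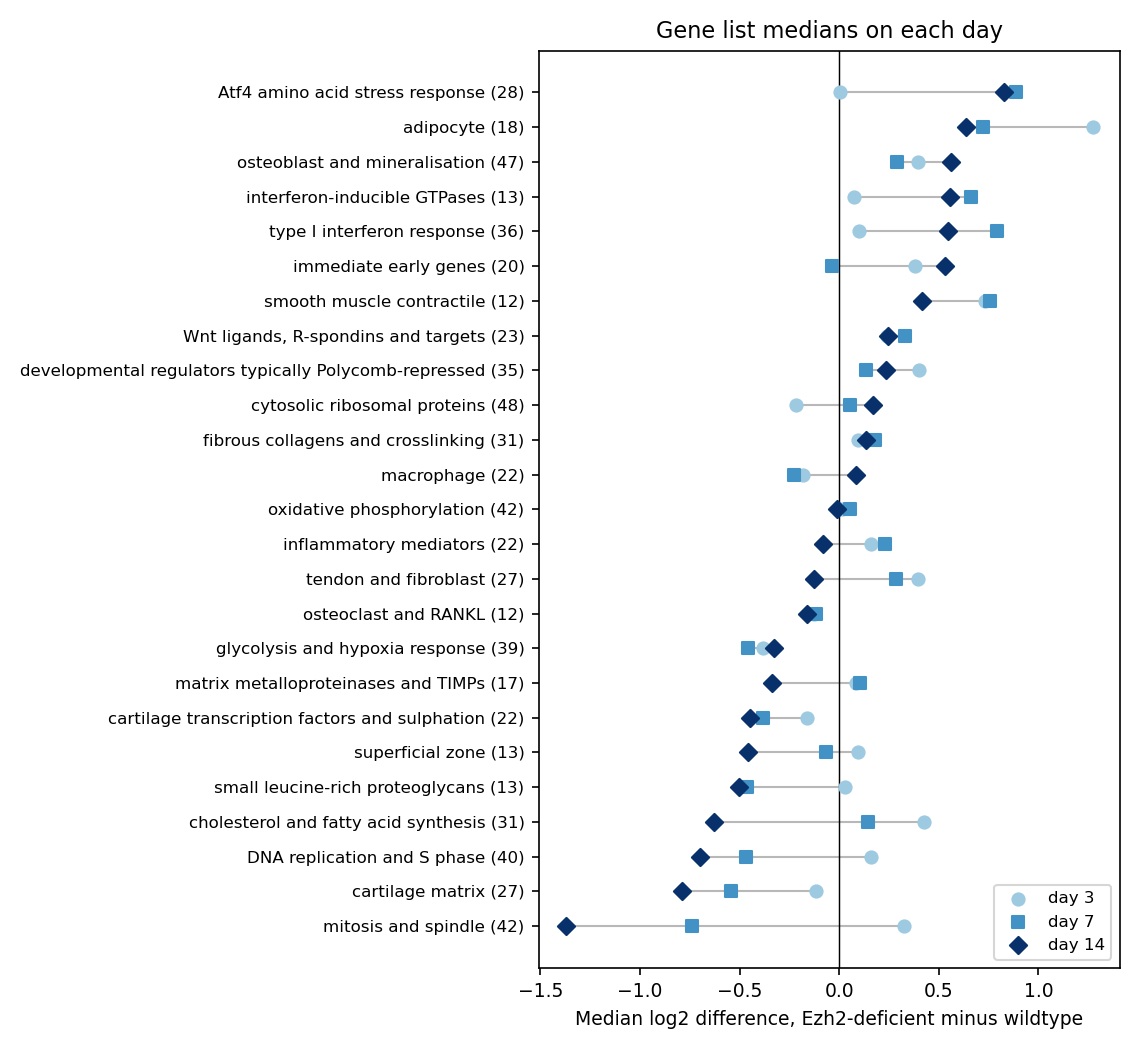
Median log2 difference (horizontal axis, Ezh2-deficient minus wildtype) of the members of 25 gene lists with at least 1 CPM at day 14 (rows, number of members in brackets), on day 3 (light circles), day 7 (squares) and day 14 (dark diamonds). The mitotic list runs from 0.33 at day 3 to -1.37 at day 14, the cholesterol list crosses 0 between days 7 and 14, and the Atf4 list lies at 0.00, 0.89 and 0.83.

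Genes further apart at day 14 were counted by a stricter rule: apart at day 14, with a log2 difference that exceeded those of both earlier days by at least 1 in its own direction, each excess having a counting interval that excluded 0. This left 53 genes on the higher side (0.393% of the 13477) and 83 on the lower (0.616%). In 39 of the 53 the mutant library was at least 2-fold above its own day 7 level, and in 20 of those 39 the wildtype was as well. In 62 of the 83 the mutant library stood 2-fold or more below its own day 7 level. The wildtype library stood 2-fold or more above its own day 7 level in 8 of the 83 and below it in 9. The rule itself uses the day 7 and day 14 levels, so these counts describe the genes it chose. Which genotype changed was not tested.

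Ephx4, of the epoxide hydrolase family, stood at 16.1 against 22.4 CPM (day 3), 0.910 against 0.636 CPM (day 7) and 0.721 against 24.2 CPM (day 14), so at day 14 the mutant alone stood near the level of day 3, 33.5-fold higher (95% counting interval 21.3 to 56.1). Tmem158, a membrane protein gene first described as induced by Ras, had the widest gap at day 14 among the genes named here, at 659 against 397 CPM (day 3), 9.64 against 614 CPM (day 7) and 6.83 against 546 CPM (day 14), but the wildtype level was already low at day 7. Cxcr7, the scavenging receptor of the chemokine Cxcl12, stood at 7.98 against 6.15 CPM (day 3), 13.9 against 11.2 CPM (day 7) and 33.8 against 82.6 CPM (day 14). Cadm1, a cell adhesion molecule, stood at 17.99 against 17.1 CPM (day 3), 33.4 against 21.1 CPM (day 7) and 83.6 against 221 CPM (day 14). Both were lower in the mutant on the earlier days and more than 2-fold higher at day 14. Cpxm2, an inactive carboxypeptidase of the matrix, stood at 18.2 against 13.6 CPM (day 3), 17.5 against 12.8 CPM (day 7) and 29.8 against 87.3 CPM (day 14), and Kcnk1, a potassium channel, at 12.8 against 10.3 CPM (day 3), 10.1 against 6.01 CPM (day 7) and 33.9 against 96.6 CPM (day 14). For both, the mutant was the lower library early and the highest of all 6 at day 14. Scn1a, a voltage-gated sodium channel, was 1.33 against 1.38 CPM (day 3), 1.82 against 1.68 CPM (day 7) and 8.08 against 34.6 CPM (day 14), and Ranbp3l was 0.544 against 0.566 CPM (day 3), 0.683 against 0.942 CPM (day 7) and 4.10 against 27.3 CPM (day 14).

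On the lower side, besides Matn1, Ucma, Slc20a1, Mmp3, Chi3l1, Chrdl1, Col6a3 and Idi1 given above, Pxn, paxillin, an adaptor of focal adhesions, stood at 65.7 against 60.9 CPM (day 3), 56.5 against 51.5 CPM (day 7) and 167 against 45.9 CPM (day 14). Here the wildtype day 14 library was the one set apart, since the mutant at day 14 lay close to the other 4. Galnt13, an enzyme that starts mucin-type sugar chains, stood at 0.272 against 1.19 CPM (day 3), 5.32 against 5.65 CPM (day 7) and 26.03 against 7.58 CPM (day 14), higher in the mutant at day 3 and lower at day 14. Lipg, endothelial lipase, stood at 2.63 against 6.47 CPM (day 3), 5.29 against 9.92 CPM (day 7) and 4.82 against 0.619 CPM (day 14), with the same crossing, and was 7.78-fold lower (4.67 to 13.8).

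**Figure D5:**
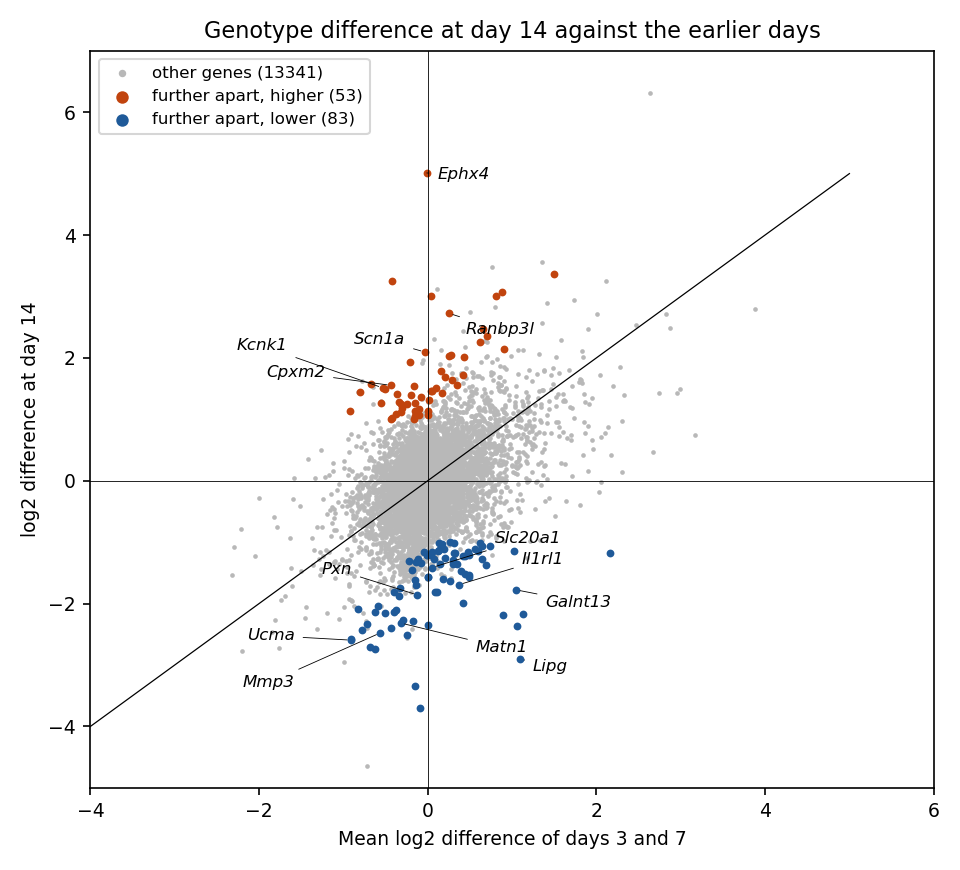
Log2 difference at day 14 (vertical axis) against the mean log2 difference of days 3 and 7 (horizontal axis) for 13477 genes; the diagonal marks equal values, and orange (53) and blue (83) points are genes further apart at day 14. Ephx4 lies near 0 on the horizontal axis and at 5.01 on the vertical axis, and Lipg and Galnt13 lie to the right of 0 and below it.

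The difference between day 14 and the earlier days was tested in a model that took the day 3 and day 7 pairs as repeats, which left 1 residual degree of freedom. Its p-values therefore measure change between days and not the spread between cultures, and the day 14 side is 1 library per genotype. In edgeR 0 of 16280 genes passed on the higher and 0 on the lower side (0% on each side), where 344 and 633 had a p under 0.05 before adjustment and the smallest adjusted p was 0.123. DESeq2 called 15 higher (0.0921%) and 37 lower (0.227%), and limma-voom 0 of either. None of the genes above is therefore shown by edgeR to differ more at day 14 than before. A genotype difference that changed between days 3 and 7 enters the residual of this model. The mitotic list, with medians of 0.33 at day 3 and -0.74 at day 7, is an example. For such genes the lack of a call does not show that day 14 was like the earlier days. The smallest p belonged to an uncharacterised gene, and the named genes with the smallest p in edgeR were Cpxm2, Ephx4, Cxcr7, Kcnk1 and Fam102a on the higher side and Pxn, Slc20a1, Il1rn, Lipg and Il1rl1 on the lower. Their edgeR adjusted p lay between 0.591 and 0.714, and each passed in DESeq2, where adjusted p ran from 1.57e-15 for Ephx4 to 0.0499 for Fam102a. Each passed in that 1 of 7 settings, with a highest adjusted p of 0.927. Fam102a and Il1rn were not past the size rule at day 14, at 64.4 against 104 CPM and 58.97 against 36.7 CPM. For Pxn the day 14 excess was -1.73 on the log2 scale in edgeR, for Slc20a1 it was -1.46 and for Cpxm2 it was 1.99. The genes further apart by size were chosen on the same excess in the same 6 libraries. Their overlap with the DESeq2 calls therefore gives no separate support.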

How the data were processed

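RNA of 6 micromass libraries, wildtype and Ezh2-deficient on days 3, 7 and 14, was sequenced. Per the file headers, the deposited table pairs each library's gene counts with RPKM values that the authors computed. CASAVA 1.9, TopHat 12.0.6, HTSeq and the mm10 build are named in the submitters' processing notes; the strandedness of counting is not given in the sources used here, and overlapping, antisense and near-identical genes are therefore uncertain. All deposited counts were even, and 1 fragment was taken as 2 counts. RPKM values were used for ranks within a library only.

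Counts were scaled with TMM factors (edgeR 4.0.16, R 4.3.3), and log2 values used a prior count of 2. Exact 95% counting intervals came from fragments (Python 3.11.15); the floor was 3 fragments. Genes with at least 1 CPM in the higher day 14 library were compared; a gene was apart at 2-fold with an interval excluding equality. Day 14 was set against days 3 and 7 in edgeR's quasi-likelihood model (day as a factor, genotype, and genotype within day 14: 5 coefficients, 1 residual degree of freedom), after filterByExpr with a minimum count of 10 (16280 genes), with Benjamini-Hochberg adjustment over all genes at a threshold of 0.05; DESeq2 1.42.0 and limma-voom 3.58.1 were alternatives. The steps were run on simulated data with known changes at day 14 only. Those data had no day effect and no genotype difference at days 3 and 7. The run therefore checks the steps and not the error rate of the day 14 test.

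The rule named Ezh2; the 15 largest log2 differences and 10 largest CPM differences each way among genes apart at 5 CPM or more; 12 genes further apart each way; 5 with the smallest interaction p each way; up to 6 members of each of 49 lists; and a set of known genes. Predicted or uncharacterised symbols were counted but not named, and a few other genes that the rule picks are not reported here. The comparison, the lists and the set were chosen with earlier results of these data known. Nothing in the labels says that libraries of 1 genotype came from separate cultures or animals. The p-values therefore measure only change between days in these libraries, not the spread between cultures.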

Additional observations from a re-analysis of the deposited data

Results flagged for a closer look

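A few genes lay at least 2-fold apart at day 14 in one direction and at least 2-fold apart in the other direction on an earlier day. Among the genes named here these were Galnt13, Lipg and Saa3. Galnt13, an enzyme of mucin-type sugar chains, had a log2 difference of -1.78 at day 14 and 2.01 at day 3. Lipg, endothelial lipase, had -2.90 at day 14 and 1.29 at day 3. Saa3, an acute-phase protein, had -1.51 at day 14 and 1.04 at day 7. With 1 library a side on each day, the difference between 2 single days was not tested. In the model that set day 14 against both earlier days together, the edgeR adjusted p was 0.659 for Lipg and 0.792 for Galnt13. Of the 448 genes lower at day 14, 11 had been apart on the higher side at day 3 and 1 at day 7. Of all genes compared on those days, 246 of 13128 and 338 of 13473 were apart on that side. These counts therefore do not mark a set of genes that reversed.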

How the results depend on the processing

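Each value rests on 1 library per genotype, so counting error alone was measured, and the depth of 51985214 to 57319966 counts limited genes near 1 CPM most. Requiring at least 5 CPM in place of 1 CPM left 188 genes apart on the higher and 270 on the lower side, and 34 and 34 further apart, since fewer genes could pass. The other scalings, prior count, filter and interval kept all 4 counts within 1.5 times. Scaling by total counts alone shifted the median of all genes by -0.0814, and the higher share of the genes apart was 35.4% in place of 43.72%. Under it 3 list medians in place of 7 lay at or above 0.5, and 8 in place of 5 at or below -0.5; the cause was not tested. Medians of the Hox, keratinocyte, BMP, hedgehog, endoplasmic reticulum chaperone and oxidative phosphorylation lists, all near 0, changed sign with the scaling. Of 1675 values of named genes under the alternatives, 95 moved by more than their counting interval, none of the called values changed sign, and the largest change was 0.311; of 279 list medians 13 moved, by up to 0.342. In the test of day 14 against days 3 and 7, DESeq2 called 15 higher and 37 lower genes where edgeR called 0, and edgeR called 1 lower gene with RLE factors and 1 with total counts alone, the uncharacterised 2310003H01Rik, named after its values were seen, at adjusted p of 0.0489 and 0.0442. No filter, robust dispersion and limma-voom gave 0; the cause was not tested. No paired test within day 14 was possible with 1 library per genotype. The day, which pairs the genotypes, is a term of the model.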

Other observations

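The gene with the widest difference on the lower side among those at 5 CPM or more was 2310003H01Rik, an uncharacterised gene named after its values were seen. It stood at 11.8 against 11.5 CPM (day 3), 16.1 against 14.6 CPM (day 7) and 154 against 11.9 CPM (day 14). The wildtype day 14 library held the high value and the other 5 libraries were alike, the pattern that Pxn showed with a smaller gap.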
